A study of Mus musculus with 2 samples.

Results

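The subject is the microRNA (miRNA) pair mmu-miR-101a and mmu-miR-101b (miR-101a and miR-101b for short) in microvesicles shed by 3T3-L1 adipocytes. Both entries were found by name among the non-control spots of the array, without their passenger strands, and they make up 2 of the 567 mouse miRNAs on it. They were selected on their processed signals and background flags on these same arrays, which had placed them at the detection limit. These values are therefore a description, without a test. The study compared vesicles from cells late after induction (day 8-10) with vesicles from cells early after induction (day 2-4), with 1 array for each window. 3T3-L1 cells are mouse preadipocytes, a line in which hormonal induction leads to lipid storage. In both windows the cells had been induced with 10 µg/ml insulin, 0.25 µM dexamethasone and 0.5 mM 3-isobutyl-1-methylxanthine in DMEM with 10% FCS, and vesicles were pelleted from medium conditioned for 48 h. No sample from uninduced cells or from medium without cells was used here, and signal from serum RNA and from cell RNA cannot be told apart. Nothing in the labels says that the preparations were repeated, so each difference has no replicate check, and every spread below is that between spots of 1 array.

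miRNAs are short RNAs that pair with messenger RNAs mainly through their seed, bases 2 to 8, and lower the output of those messengers. miR-101 is best known for repressing Ezh2, the methyltransferase of Polycomb repressive complex 2, and in mouse uterus miR-101a also represses the cyclooxygenase Ptgs2. Ezh2 is known to favour adipogenesis by silencing Wnt genes in preadipocytes.

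The mature sequences are shown because the array reads each miRNA through short probes to it, and the members differ by few bases. They are those of RefSeq on GRCm38.p6, with the seed in capitals. The unstarred array names were read as the 3p arm, the arm these older names stand for.
miR-101a-3p: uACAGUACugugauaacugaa
miR-101b-3p: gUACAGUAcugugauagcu
miR-101a-5p: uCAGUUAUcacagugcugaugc
miR-144-3p: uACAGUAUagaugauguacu
miR-101a-3p has 21 bases and miR-101b-3p 19 bases in this table. With miR-101b shifted by 1 base, the pair overlaps over 18 bases, of which 17 are identical, beginning with a run of 15. The single substitution is A16G, counted from the 5′ end of miR-101a. Because miR-101b starts 1 base earlier in RefSeq, its bases 2 to 8 (UACAGUA) are not those of miR-101a (ACAGUAC). miR-101c, a further RefSeq form of which all 19 bases lie within miR-101a, is not among the array's entries. With such near-identical sequences, how much the miR-101a and miR-101b probes share signal was not tested.

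The RefSeq genes lie on different chromosomes. miR-101a-3p is at chr4:101346957-101346977 on the minus strand, within the bounds of the long noncoding RNA gene E130102H24Rik. miR-101b-3p is at chr19:29135338-29135356 on the plus strand, within the bounds of Rcl1, which encodes a ribosomal RNA processing factor. The names table gives gene bounds only, so exon or intron was not assigned. The array files place miR-101a on chromosome 4 at 101019562 to 101019582 and miR-101b on chromosome 19 at 29209832 to 29209849, under a genome build that the sources used here do not name. Both mature forms are low in G and C, at 33.3% for miR-101a and 42.1% for miR-101b, against a median of 52.2% over 1679 mouse mature miRNAs in the RefSeq table. Of those 1679, 74 (4.41%) had a share no higher than that of miR-101a.

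Both miRNAs gave a weak signal that was brighter in late vesicles than in early ones. Each was read by 2 probes with 10 spots each, so 40 spots stood for the pair on each array. The scanner software marks a spot well above background when its signal clears a multiple of the background noise. This held for 28 of 40 spots at day 8-10 and for 4 of 40 at day 2-4. The limit fell inside the range of the members' own spots. The dimmest marked spot had 5.58 and the brightest unmarked spot 5.17 intensity units at day 8-10, against 5.23 and 5.16 at day 2-4. At the same position on the slide, the day 8-10 spot was the brighter one at 39 of 40 positions. These spots are technical repeats of the same probes, and no share over all mouse spots was set beside these counts. They are no measure of agreement between preparations. The median over all spots was also higher at day 8-10 (0.646) than at day 2-4 (0.516).

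The 2 probes of miR-101a answered alike. The 20-base probe had spots from 3.85 to 11.4 with a median of 6.65 intensity units at day 8-10, against 0.184 to 4.43 with a median of 3.53 at day 2-4. The 2 ends of the day 8-10 range were outlier spots left out of the means, and without them the 2 arrays did not overlap. The 21-base probe had spots from 5.17 to 9.71 with a median of 7.91 at day 8-10, against 3.05 to 5.16 with a median of 4.07 at day 2-4. These ranges did not overlap either, although they came within rounding of each other. Of the 20 spots of miR-101a, 18 were well above background at day 8-10 and 0 at day 2-4.

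miR-101b rested on 1 of its 2 probes. The 18-base probe had spots from 7.50 to 13.9 with a median of 8.70 at day 8-10, against 3.58 to 6.97 with a median of 4.92 at day 2-4. All of its 10 spots were well above background at day 8-10 and 4 of 10 at day 2-4, and the windows did not overlap. The 17-base probe had spots from 1.25 to 3.67 with a median of 2.53 at day 8-10, against -0.817 to 2.85 with a median of 0.572 at day 2-4. None of its spots was well above background in either window, and its ranges overlapped. For both members the spots are technical repeats, and no share of other probes without overlap was set beside these ranges. Nothing is therefore read from overlap or its absence.

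**Figure D1:**
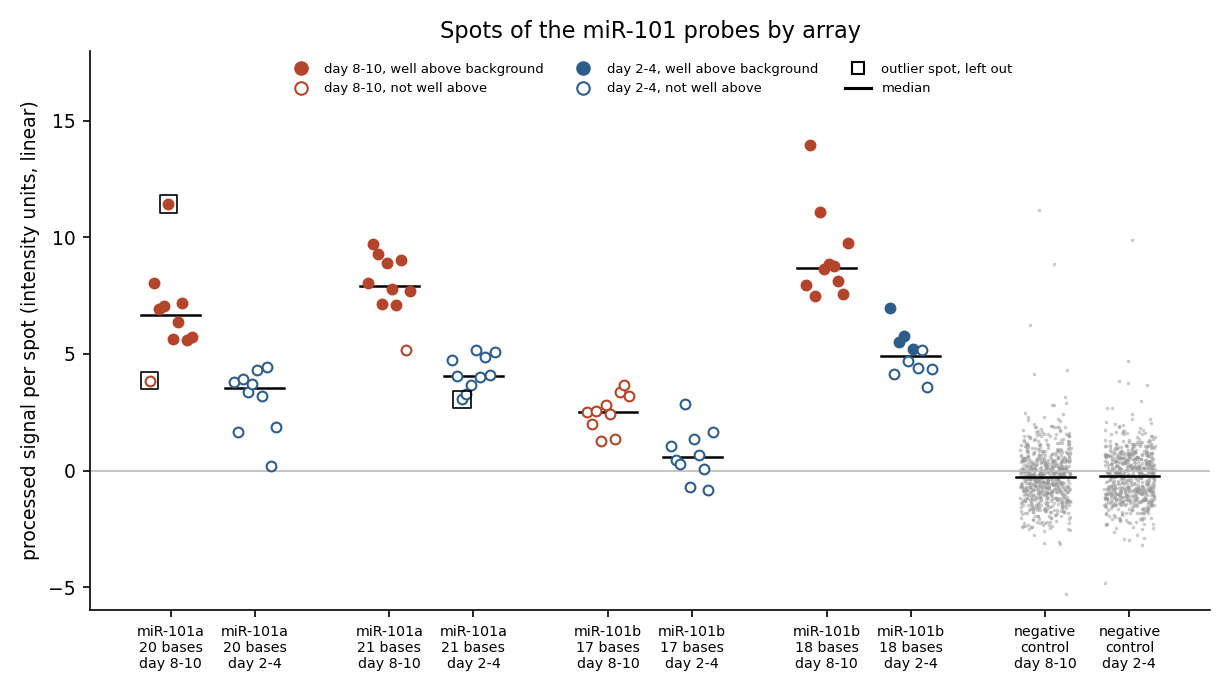
Processed signal (intensity units, linear axis) of each spot of the 4 miR-101 probes and of the 672 negative control spots, with day 8-10 left of day 2-4 for each probe; filled points are well above background, squares are outlier spots that were left out and bars are medians. Apart from the 17-base probe, most day 8-10 spots lie above the day 2-4 spots of the same probe.

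Negative control spots, which carry probes with no intended target, showed how far these signals stood from background. Their median was -0.278 at day 8-10 and -0.231 at day 2-4, with a 99th percentile of 2.84 at day 8-10 and 2.69 at day 2-4. The brightest of the 672 reached 11.2 at day 8-10 and 9.87 at day 2-4, and 3 of them at day 8-10 and 1 at day 2-4 were well above background. The day 2-4 medians of the 20-base, 21-base and 18-base probes lay above the 99th percentile of that array's controls, with 5, 2 and 1 of the 672 control spots above them. The day 2-4 median of the 17-base probe lay within the controls, with 146 of 672 above it.

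A probe was taken as detected when more than a share of 0.5 of its spots was well above background, and a miRNA when 1 probe was. By this rule both miR-101 entries were detected at day 8-10 and neither at day 2-4. Of all 567 mouse miRNAs, 166 (29.3%) were detected at day 8-10, 156 (27.5%) at day 2-4, 145 (25.6%) in both windows and 21 (3.70%) at day 8-10 only. Since the pair was picked for its place at this limit, nothing is read from that share. The scanner software's own flag for a detected miRNA, which sums over spots and probes, was set for both miR-101 entries in both windows. This flag was set on both arrays for 170 of 567 miRNAs (30%). Of the 21 miRNAs detected only late by the spot rule, 12 (2.12% of 567), miR-101a and miR-101b among them, carried it on both arrays. Whether miR-101 was called in early vesicles thus depended on the rule.

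For the size of the difference, each array's signals were divided by their 75th percentile, 95.2 at day 8-10 and 108 at day 2-4, taken from the 279 probes that both arrays detected. Values under the array's lowest detected probe, 5.55 at day 8-10 and 4.86 at day 2-4, were raised to it before log2. The members' probes lay near that floor, on either side of it. At day 8-10 the 20-base, 21-base and 18-base probes averaged 1.18, 1.44 and 1.66 times the floor, and at day 2-4 they averaged 0.625, 0.890 and 1.02 times the floor of that array. The 17-base probe averaged 0.453 times the floor at day 8-10 and 0.141 times at day 2-4. Fold changes against the undetected window are therefore lower bounds, and they are bounds only under this scaling and background correction. The floors themselves differed after scaling, so a probe at the floor in both windows has a log2 difference of 0.38.

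miR-101a averaged 7.27 intensity units at day 8-10 and 3.68 at day 2-4 over both probes. After this scaling it was at least 1.67-fold higher in late vesicles, a log2 difference of 0.74 with a spot SE of 0.051. The ratio of the measured means was 1.98 before scaling and 2.25 after it. The probes gave bounds of the same sign, with log2 differences of 0.61 (20 bases, spot SE 0.068) and 0.88 (21 bases, spot SE 0.076).

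miR-101b averaged 9.22 at day 8-10 and 4.98 at day 2-4 on its 18-base probe. After this scaling it was at least 1.96-fold higher in late vesicles, a log2 difference of 0.97 with a spot SE of 0.10. The ratio of the measured means was 1.85 before scaling, which is under that bound, and 2.11 after it. The 17-base probe averaged 2.52 ± 0.807 at day 8-10 and 0.686 ± 1.10 at day 2-4 (SD over 10 spots), both below the floor, so it gave no fold. The bound of miR-101b was 0.23 higher on the log2 scale than that of miR-101a, but the floor set most day 2-4 values of miR-101a. The ratios of the measured means had the other order, 1.98 for miR-101a and 1.85 for miR-101b before scaling. No order of the members is therefore read from the bounds, and whether they differ between preparations was not tested.

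The software's summed gene signals gave the same order of the windows for each member. In brightness they put the members in the other order than the probe means did. miR-101a had 9.70 (software error 1.23) at day 8-10 and 4.87 (error 1.04) at day 2-4. miR-101b had 7.82 (error 1.21) at day 8-10 and 3.75 (error 1.03) at day 2-4. The differences were 2.99 and 2.56 times their combined error, which covers noise within an array and not between preparations.

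Neither bound reached 2-fold, and their size varied with the processing. When all mouse probes set the 75th percentile, the log2 difference was 0.23 for miR-101a and 0.46 for miR-101b. With normexp background correction, which draws dim signals together, it was 0.17 for miR-101a and 0.23 for miR-101b. Without the floor it was 1.35 for miR-101a and 1.07 for miR-101b. It stayed above 0 in all 9 alternatives for miR-101a and all 10 for miR-101b. All of these reprocess the arrays on which the members were picked, so the shared sign says nothing about repeated preparations. In the setting used, a probe at the floor in both windows already has 0.38. Of the 145 miRNAs detected on both arrays, 23 (15.9%, or 4.06% of all 567) were at least 2-fold higher late. At least 2-fold lower were 11 (7.59%, or 1.94% of all 567). Neither member could enter that count, having been detected on 1 array only.

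**Figure D2:**
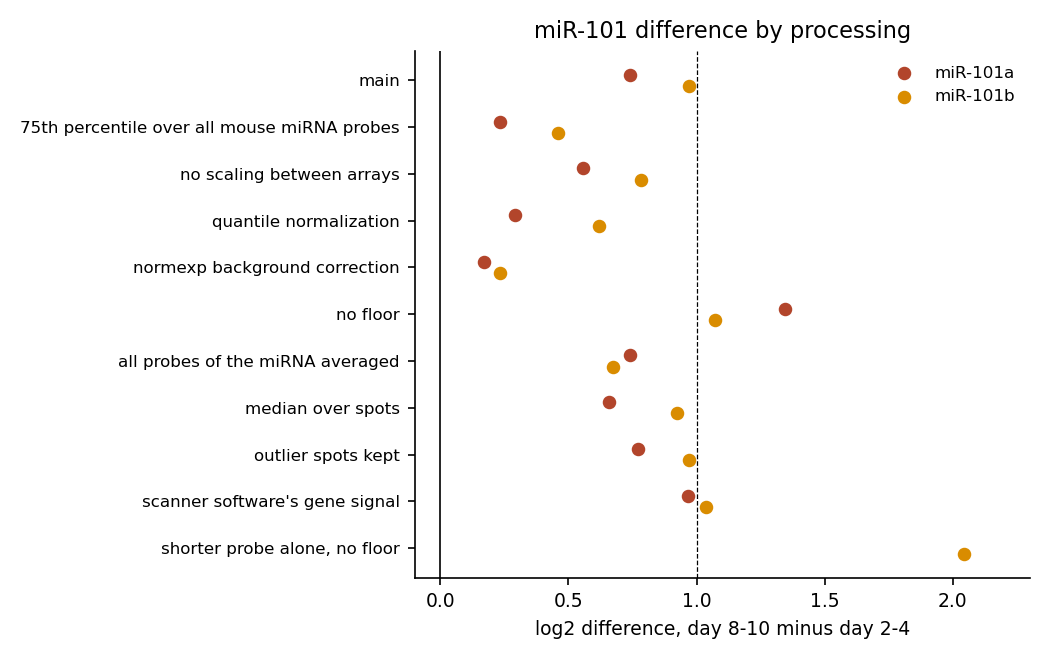
Log2 difference (day 8-10 minus day 2-4) of miR-101a and miR-101b under each way of processing, with the dashed line at 2-fold. All points lie right of 0, between 0.17 and 2.04, but all reprocess the arrays on which the members were picked. The largest comes from the 17-base probe alone without the floor, whose signal was below the floor on both arrays.

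Probes of like brightness were set beside the members to show how dim probes behaved in general. The members' 3 detected probes averaged 4.80 to 7.10 over both arrays, and 52 other probes of 42 miRNAs fell in that range. Of these, 25 (48.1%) were brighter at day 8-10 before scaling, with a median ratio of 0.992 and quartiles of 0.815 and 1.65. The members' ratios ran from 1.85 to 2.16, and 10 of the 52 (19.2%) had a ratio of at least 1.85. The members' probes were taken because they were detected at day 8-10, whereas the 52 were taken by brightness alone, so nothing is read from where the members lie among them.

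The 2 probes of each member share 1 end and differ in length by 1 base. At day 8-10 the 21-base probe of miR-101a was 1.22 times as bright as the 20-base probe, both being detected. The 18-base probe of miR-101b was 3.66 times as bright as the 17-base probe by measured means. That ratio rests on a 17-base signal below the floor. The array held 217 other such pairs, of 161 miRNAs, with at least 1 probe detected at day 8-10. The longer probe alone was detected in 56 of them, as for miR-101b, and the shorter alone in 6. In the 155 pairs with both probes detected, the longer was brighter in 132 (85.2%), with a median ratio of 1.66 and quartiles of 1.14 and 3.02.

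**Figure D3:**
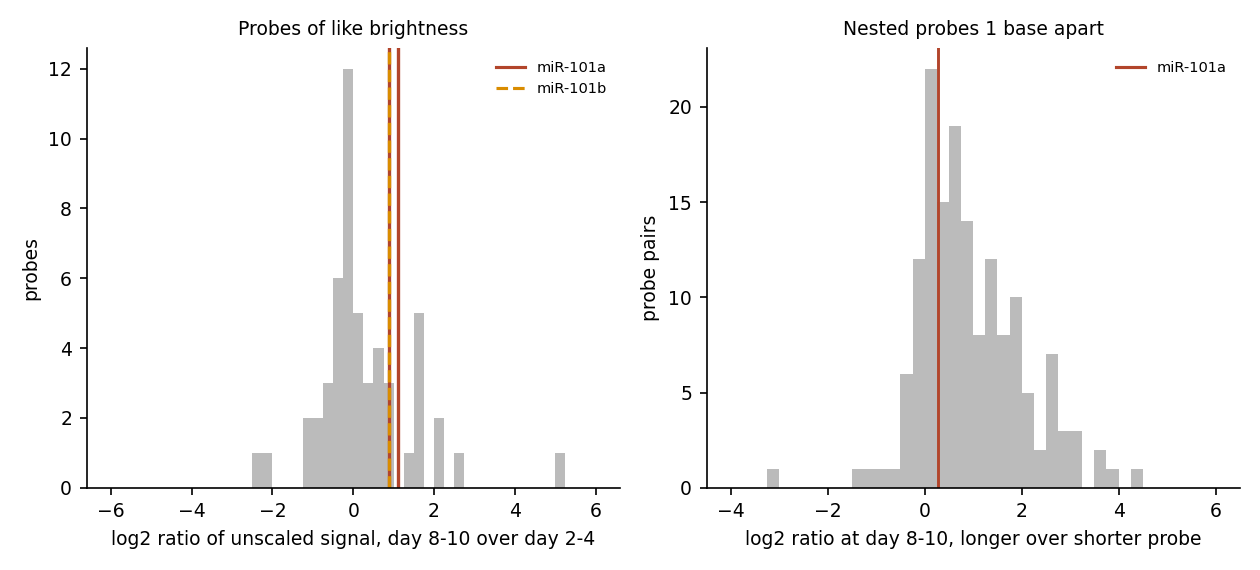
Left, counts of the 52 probes of like brightness by log2 ratio of unscaled signal (day 8-10 over day 2-4), with lines for the 3 detected miR-101 probes, of which the 21-base and 18-base ones nearly coincide. Right, counts of the nested probe pairs with both probes detected at day 8-10, by log2 ratio of the longer over the shorter probe, with a line for miR-101a at a ratio of 1.22.

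The passenger strand of miR-101a, the arm usually discarded when the hairpin is cut, was not detected. The array entry miR-101a* lies 36 bases from miR-101a in the files, the same distance as between the RefSeq arms, which identifies it as miR-101a-5p. Its 4 probes had medians of -0.770 to 1.02 intensity units at day 8-10 and -0.990 to 0.186 at day 2-4, all inside the range of the negative controls. Its probes cover 13 to 16 bases and the miR-101a probes 20 or 21, so no ratio of the arms was taken.

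2 other array entries share bases 2 to 7 with a member. miR-144, which is known from red blood cells and is made from the same transcript as miR-451, has the bases ACAGUA in common with miR-101a, but its seed ends in U (ACAGUAU). It averaged 6.67 intensity units at day 8-10 and 1.66 at day 2-4, was detected at day 8-10 only, and was at least 1.57-fold higher then, a log2 difference of 0.65 with a spot SE of 0.050. miR-582-5p shares UACAGU with miR-101b and was not detected, at -0.145 at day 8-10 and 0.679 at day 2-4. Of the list of blood and serum miRNAs, all 5 were detected on either array, miR-144 at day 8-10 only, as were 177 (31.2%) of the 567. None of the 4 detected on both arrays passed 2-fold, beside 23 (15.9%) higher and 11 (7.59%) lower of the 145 miRNAs detected on both. miR-451 had 664 at day 8-10 and 733 at day 2-4. The part of these blood and serum miRNAs in the miR-101 signal was not tested.

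A list of 8 other miRNAs known to target Ezh2 was set beside the members. Of these, 7 were detected on either array, as were 177 (31.2%) of the 567. Among the 6 detected on both, 1 was at least 2-fold higher late and 1 at least 2-fold lower. Over all 145 miRNAs detected on both, these shares were 15.9% and 7.59%, and nothing particular is read from counts of 1. The median log2 difference of the 7 was 0.054, beside 0.29 over the 177. That 0.054 was the value of miR-138, which was detected at day 2-4 only and was dimmer late. Its day 8-10 mean lay below the floor, and without a floor its log2 difference was -0.49, so no direction is read from this median. let-7b, of the growth-restraining let-7 family, averaged 232 at day 8-10 and 121 at day 2-4 (log2 difference 1.12). miR-214, a miRNA of mesenchymal cells, averaged 58.7 at day 8-10 and 206 at day 2-4 (-1.63).

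The remaining Ezh2-linked miRNAs stayed under 2-fold or undetected. miR-26b, which promotes adipogenesis, had 32.3 at day 8-10 and 18.7 at day 2-4 (log2 difference 0.99), while its relative miR-26a had 76.2 at day 8-10 and 89.1 at day 2-4 (-0.048). let-7c had 327 at day 8-10 and 255 at day 2-4 (0.52), and let-7a had 244 at day 8-10 and 275 at day 2-4 (-0.040). miR-138, which restrains adipogenesis, was detected at day 2-4 only, with 3.79 at day 8-10 and 6.01 at day 2-4, and miR-124, a neural miRNA, was not detected.

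**Figure D4:**
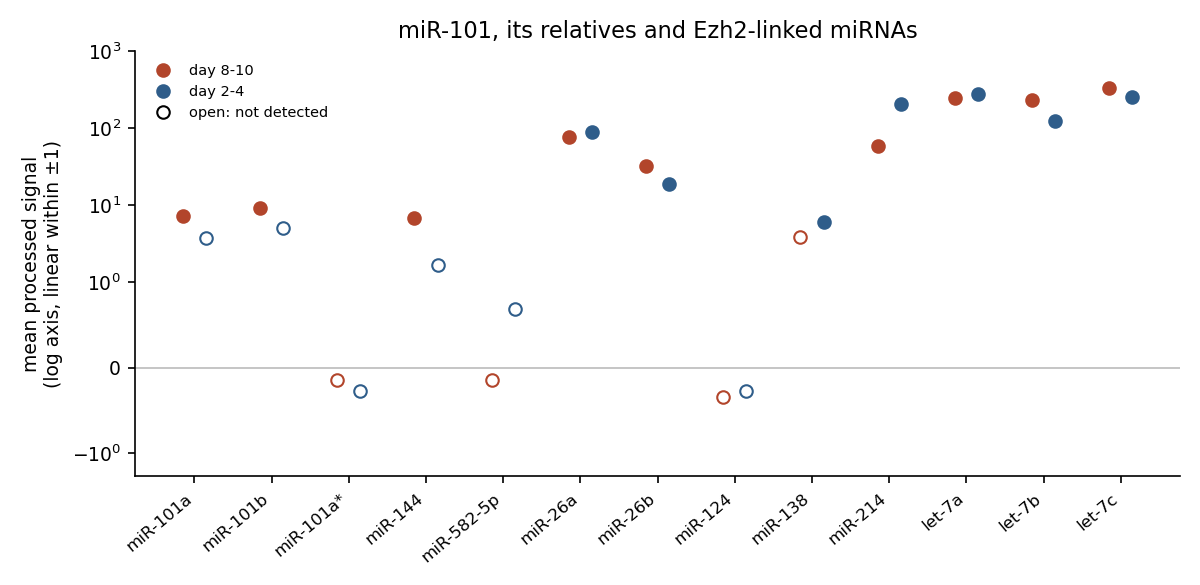
Mean processed signal (log axis, linear within 1 of 0) of miR-101a, miR-101b, the passenger strand, the entries sharing bases 2 to 7 and the Ezh2-linked list, with day 8-10 left of day 2-4 and open points not detected. The miR-101 points lie between 3.68 and 9.22, below the points of let-7, miR-26 and miR-214, and the signal of a probe is no measure of amount against another probe.

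The entries whose pair of signals lay nearest to the members were found by Euclidean distance of scaled log2 signals over the 2 arrays, among 212 miRNAs with a value above the floor on at least 1 array. For miR-101a they were miR-452 (distance 0.098), miR-144 (0.10), miR-99b* (0.11), miR-195 (0.12) and miR-193* (0.15). For miR-101b they were miR-301a (0.027), miR-497 (0.066), miR-715 (0.068), miR-19a (0.11) and miR-691 (0.12). Of these, miR-497 alone was detected on both arrays, with 9.45 at day 8-10 and 5.19 at day 2-4, close to the 9.22 and 4.98 of miR-101b. The day 2-4 value of miR-101a (-4.47) itself lay next to the floor (-4.48), so the floor also shaped its distances. The day 2-4 values of miR-452, miR-144, miR-193* and miR-691 were the floor, so these distances do not reflect their measured signals there. Those averaged 2.36, 1.66 and 1.46 for miR-452, miR-144 and miR-193*, beside 3.68 for miR-101a. miR-691 averaged 2.52, beside the 4.98 of miR-101b. Among the 21 entries detected only late, the bound of miR-101b ranked 10 and that of miR-101a 16, below 8 entries (1.41% of 567) that passed 2-fold.

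**Figure D5:**
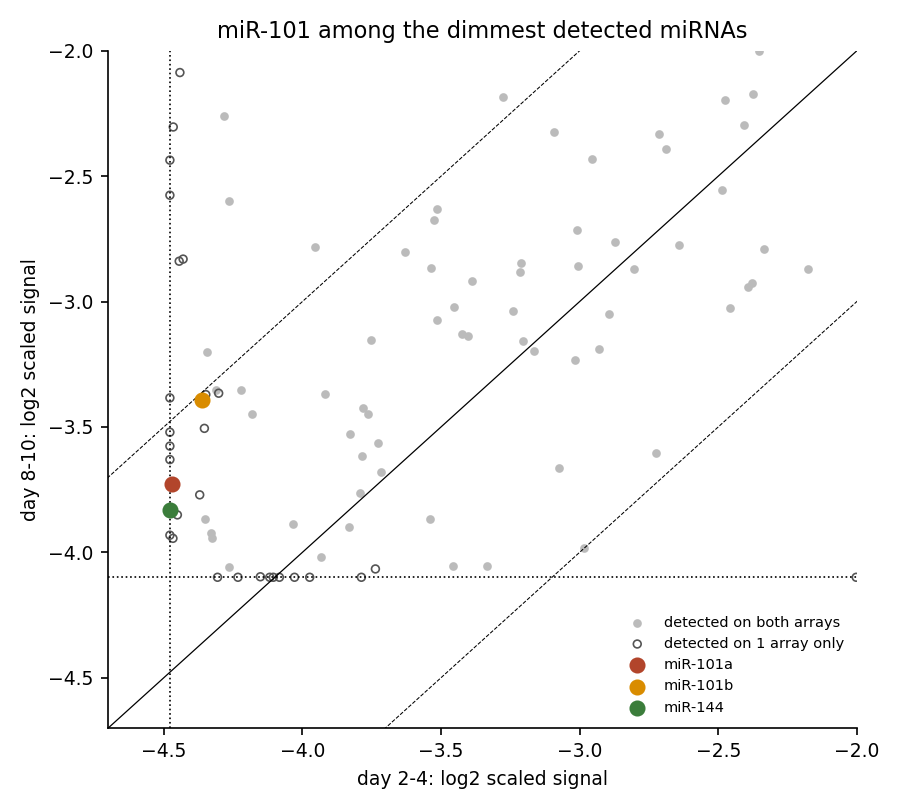
Log2 scaled signal at day 8-10 (vertical) against day 2-4 (horizontal) for the 96 of 177 miRNAs detected on either array that lie at or below -2 on both; dotted lines are the floors, the solid line is equality and dashed lines are 2-fold. miR-101a and miR-101b lie beside the day 2-4 floor and above the line of equality, with miR-144, raised to that floor, close to miR-101a.

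Markers of the labelled cell line and of other cell types were set beside these values. All 5 adipogenesis markers were detected in both windows, beside 25.6% of the 567. In the setting used, 4 of them were at least 2-fold higher late (miR-103, miR-107, miR-378 and miR-30c), beside 15.9% of the 145 detected on both. The median log2 difference of the 5 was 1.34, and miR-30c passed narrowly at 1.03. When all mouse probes set the 75th percentile, 10 miRNAs instead of 23 were at least 2-fold higher late, so marker calls near 2-fold depend on the scaling. Both fibroblast markers, miR-199a-5p and miR-214, were at least 2-fold lower late, beside 7.59% of the 145. The marker lists were chosen with earlier results of these data known, so these counts are a description and no support for cell identity. Markers of liver (miR-122), muscle (miR-1, miR-133a and miR-206) and neural cells (miR-9 and miR-124) were not detected, as were most miRNAs of the array.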

How the data were processed

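Total RNA (100 ng) was labelled with Cy3 and hybridised to 1-colour Agilent mouse miRNA arrays, per the labels' protocols. Per the file headers, the authors extracted spots with Agilent Feature Extraction 9.5.3.1; the deposited processed intensity is linear, has a fitted background surface subtracted and is not normalized between arrays. The deposited series table held that same intensity at 24986 of 24986 spots (medians 0.646 at day 8-10 and 0.516 at day 2-4). The software's error-model p-value per spot and its flags are deposited too, per the file headers.

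Here, outlier spots of mouse probes were left out (249 at day 8-10 and 237 at day 2-4), and no spot was saturated. The 1672 mouse probes were scaled, floored and log2 transformed as stated beside the results. Spots were averaged per probe, then probes detected on at least 1 array per miRNA. A 2-fold count also required a difference above 2 spot SE. With 1 array per window no test was run, and the number of arrays limits the precision. Named entries were the members, their passenger strands, entries sharing bases 2 to 7, the Ezh2 list and the 5 nearest entries per member. Members and lists were chosen with earlier results of these data known. Alternatives covered detection rule, scaling, background correction (limma 3.58.1, normexp, offset 50), floor, probes and outliers. The calculation was tested on simulated data (Python 3.11.15).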

Additional observations from a re-analysis of the deposited data

Results flagged for a closer look

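Control spots outside the comparison gave signals above every negative control spot on at least 1 array. The ratio of their unscaled medians, day 8-10 over day 2-4, was 6.17 for the control named hur_1, 4.49 for hur_2, 10.0 for hur_4, 4.39 for hur_6 and 3.89 for the bright corner spots. It was 0.790 for the control mr_1 and 1.02 for the viral entry mghv-miR-M1-2. The files do not say what these controls measure, and their part in the miR-101 difference was not tested.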

How the results depend on the processing

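No paired analysis was possible because each window has 1 array. Of the 4 miR-101 probes, 0 were detected at day 2-4 in the setting used, 1 when any spot sufficed and 3 by the flag for positive and significant spots. The software's miRNA flag, an alternative chosen after seeing the data, gave 2 of 2 miRNAs. For miR-101a the log2 difference of 0.74 came to 0.23 with the 75th percentile over all mouse probes, 0.29 with quantile normalization, 0.17 with normexp, 1.35 without a floor and 0.97 with the software's gene signal. For miR-101b the 0.97 came to 0.46, 0.62 and 0.23 under the first 3 of these, and to 2.04 on the 17-base probe alone without a floor, where both signals lay below it, also added after seeing the data. Counts at least 2-fold higher late were 10 with all probes scaled and 5 with normexp (23 in the setting used). Counts lower were 29, 5 and, with any spot sufficing, 18 (11), and with any spot 20 miRNAs were detected at day 2-4 only (11). The median of the relatives and Ezh2-linked list, 0.29, came to -0.22 with all probes scaled, 0.10 unscaled, 0.080 with quantile normalization, 0.14 with normexp and 0.078 with the gene signal. Within it miR-138 (0.054) turned to -0.45 with all probes scaled, -0.13 unscaled, -0.38 with quantile normalization, -0.49 without a floor and -0.89 with the gene signal. The cause of these shifts was not tested. Both members lay under 2 times the floor, which limits how well their differences are measured.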

Other observations

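1 of the 5 spots of the 14-base probe to miR-101a* reached 8.00 intensity units at day 2-4, well above background by the software's flag, while the median of that probe there was 0.186. The software also marked it as an outlier.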
